A study of Mus musculus and Ictidomys tridecemlineatus with 36 samples.

Results

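The Hox genes code for homeodomain transcription factors that give cells their position along the body axis, and in mouse they lie in 4 compact clusters on 4 chromosomes. The 38 genes described here, 10 of Hoxa, 10 of Hoxb, 9 of Hoxc and 9 of Hoxd, were taken by name from a fixed list, out of 21938 protein-coding genes on the chromosomes of the GENCODE M21 annotation of GRCm38. A peak was assigned to a gene when it shared at least 1 bp with the 1 kb on either side of any annotated transcription start site (TSS), or with the gene body. CUT&RUN, which releases and sequences the DNA around a bound antibody, was applied to nuclei of postnatal retina from thirteen-lined ground squirrel (13LGS) and mouse, in 36 libraries and 12 combinations of species and target. The 5 mouse peak lists were used here, for H3K4me3, H3K27ac, H3K4me1, Otx2 and Neurod1 in P2 retina. They rest on 20 mouse libraries, which were 2 each for the 3 histone marks and for the IgG control, 4 for Neurod1 and 8 for Otx2, of which 4 were made with each of 2 antibodies. Each of the 2 biological replicates pooled nuclei from 3 mice, with 385000 nuclei in a reaction, and the labels name no strain, treatment or genetic change for the mouse samples.

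Hox genes are read out along the trunk, limbs and hindbrain, roughly in the order in which they lie on the chromosome, whereas the retina forms from forebrain tissue in front of their domain. H3K4me3 marks promoters, above all CpG-rich ones, and H3K27ac marks active promoters and enhancers. H3K4me1 is found at enhancers and at promoters, with or without H3K4me3. Silent Hox clusters in other tissues are known to be covered by Polycomb proteins and H3K27me3, a mark that was not analysed here. Otx2 and Neurod1 are transcription factors of retinal neurons and photoreceptors.

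Every peak carries a single fold enrichment over IgG and a single −log10 q-value, computed from the libraries of its target together. No spread between replicates could therefore be computed, no test of a difference was possible, and read depth is unknown. All counts are descriptions, and a gene without a peak is one at which nothing passed a q-value of 0.05 over IgG, which does not show that the mark is absent. Bulk retina also mixes cell types, and few cells with a mark cannot be told apart from a weak mark in all cells. The retinal label was checked against marker genes: 10 of 11 retinal marker genes had both H3K4me3 and H3K27ac at a TSS (all but *Rcvrn*, a photoreceptor calcium sensor). H3K4me3 was present at 1 of 4 pigment epithelium markers (*Pmel*), at 0 of 3 endothelial, 0 of 3 microglial, 0 of 2 liver and 0 of 2 lens markers, while H3K4me1 was present at 3 of 3 endothelial markers and 1 of 2 lens markers (*Cryaa*).

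None of the 38 Hox genes had an H3K4me3 peak at a TSS, against 56% of protein-coding genes, and none had an H3K27ac peak, against 22.6%. None had a Neurod1 peak, against 5.76%. H3K4me1 was found at 18 of the 38 genes (47.4%), against 63.6% of protein-coding genes, and Otx2 at 5 (13.2%), against 51%. No Hox gene thus had a called peak of the promoter mark, and the peaks they had were H3K4me1 with a few of Otx2.

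**Figure D1:**
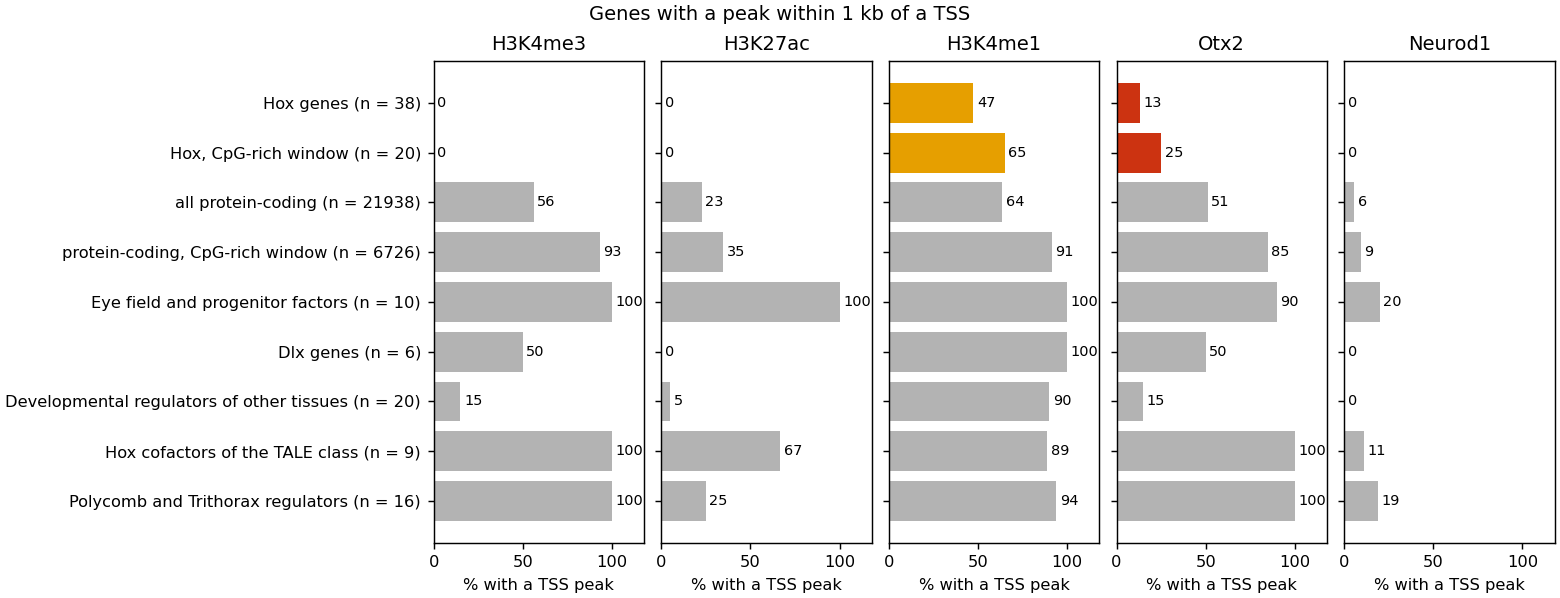
Percent of genes with a peak within 1 kb of a TSS (x axes), for each of the 5 mouse lists (panels), in the Hox genes (coloured bars), all protein-coding genes and the comparison gene lists (grey bars), with the number of genes in brackets. The Hox bars are at 0 for H3K4me3, H3K27ac and Neurod1, while H3K4me3 reaches 100% of the eye field genes, of the TALE cofactors and of the Polycomb and Trithorax regulators.

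By combination of histone marks, 18 Hox genes (47.4%) had H3K4me1 without H3K4me3 or H3K27ac, a state found at 10.6% of protein-coding genes. The remaining 20 (52.6%) had no histone peak at a TSS, against 31.6%. No peak of any of the 5 lists was found at 19 Hox genes (50%), against 31.3%. These 19 were *Hoxa6* and *Hoxa9* in Hoxa, every gene but *Hoxb7* in Hoxb (*Hoxb1*, *Hoxb2*, *Hoxb3*, *Hoxb4*, *Hoxb5*, *Hoxb6*, *Hoxb8*, *Hoxb9* and *Hoxb13*), then *Hoxc4*, *Hoxc5*, *Hoxc8*, *Hoxc10*, *Hoxc11* and *Hoxc12* in Hoxc, and *Hoxd10* and *Hoxd12* in Hoxd. Hoxb was the emptiest cluster, with 9 of its 10 genes unmarked, followed by Hoxc with 6 of 9, whereas Hoxa and Hoxd had 2 each.

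Gene bodies gave a similar picture, but longer genes hold more peaks and the shares below were not matched for gene length. The Hox gene models ran from 1853 bp (*Hoxc12*) to 49987 bp (*Hoxc5*). H3K4me3 was found in the body of 0 Hox genes (56.8% of protein-coding genes), H3K27ac in 0 (34.8%) and Neurod1 in 0 (9.72%). H3K4me1 was found in the body of 17 Hox genes (44.7%), against 68.4%, and Otx2 in 6 (15.8%), against 54.4%. Some of these are shared, because the annotated *Hoxa3* model runs over *Hoxa4*, *Hoxa5* and *Hoxa6*, the *Hoxc5* model over *Hoxc6*, *Hoxc8* and *Hoxc9*, and *Hoxd3* and *Hoxd4* begin within the same peak. *Hoxd3*, one of the longest gene models at 36516 bp, held 7 H3K4me1 peaks, and *Hoxa3*, at 44275 bp, held 5.

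Many of the Hox promoters are CpG-rich, the kind that usually carries H3K4me3. A TSS window of 2 kb was called CpG-rich when at least 50% of its bases were G or C and its CpG dinucleotides reached at least 0.6 of the number expected from its base composition. By this measure 20 of the 38 Hox genes (52.6%) had a CpG-rich window, against 30.7% of protein-coding genes. These windows lay at the start of the principal transcript, while peaks were counted at any TSS. Of all 6726 protein-coding genes with a CpG-rich window, 93% had H3K4me3, 34.8% H3K27ac and 91.3% H3K4me1, and only 87 (1.29%) had no peak of any list. Of the 20 Hox genes with such windows, 0 had H3K4me3, 0 had H3K27ac, 13 (65%) had H3K4me1 and 6 had no peak at all. The 20 genes make up 4.26% of the 469 protein-coding genes with a CpG-rich window and no H3K4me3.

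H3K4me1 was more frequent at higher CpG content, in Hox genes and in protein-coding genes at large. All 6 Hox genes with a CpG observed over expected ratio of 0.8 to 1 had H3K4me1, as did 7 of 14 between 0.6 and 0.8, 3 of 12 between 0.4 and 0.6, and 2 of 6 between 0.2 and 0.4. The ratio belongs to the principal transcript, and a peak may lie at another TSS of the gene. For *Hoxc6* and *Hoxd4*, the marked genes between 0.2 and 0.4, the peaks lay outside the window in which the ratio was read. Of all protein-coding genes H3K4me1 was found at 91.1%, 90.9%, 84.9% and 50.1% in the same intervals, so the 6 of 6 is near the general share and the lower intervals fall below it. H3K4me3 was found at 96.3%, 92.1%, 77.6% and 25.3% of protein-coding genes, and at 0 Hox genes in each interval. The median ratio was 0.705 in Hoxa, 0.705 in Hoxd, 0.538 in Hoxc and 0.481 in Hoxb, so the more CpG-rich clusters were also the ones with more H3K4me1. Among genes with CpG-rich windows alone, H3K4me1 was found at 5 of 6 in Hoxa and 6 of 7 in Hoxd, and at 1 of 4 in Hoxb and 1 of 3 in Hoxc. With so few genes, cluster and CpG content cannot be told apart.

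**Figure D2:**
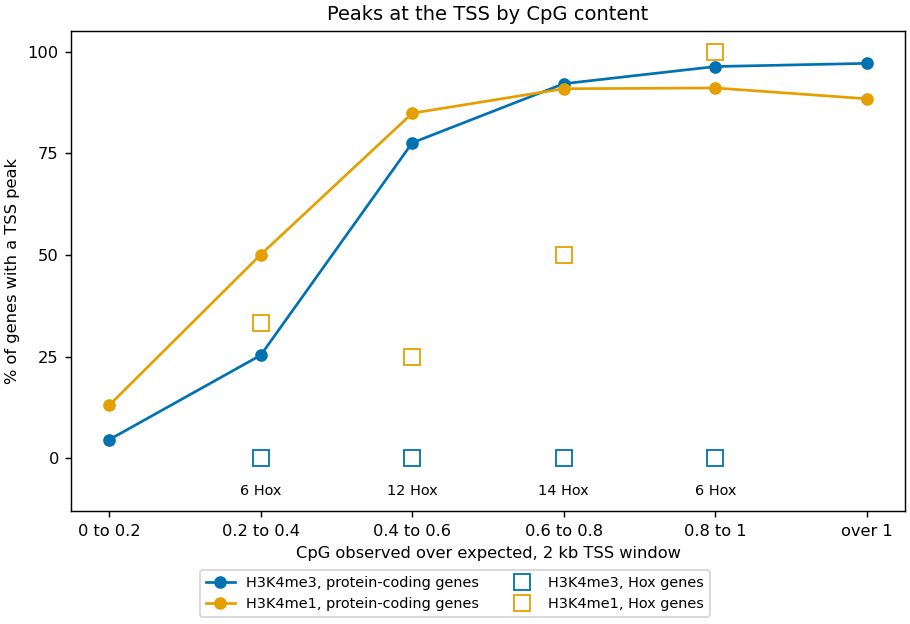
Percent of genes with a peak within 1 kb of any TSS (y axis) by the CpG observed over expected ratio of the 2 kb window at the start of the principal transcript (x axis), for all protein-coding genes (filled circles) and the 38 Hox genes (open squares, with their number below). H3K4me3 reaches 96.3% of protein-coding genes at a ratio of 0.8 to 1 and is at 0 in Hox genes of every interval, and H3K4me1 is found at all 6 Hox genes with a ratio of 0.8 to 1.

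The bases just upstream of several Hox genes show this composition. The sequences below are the 250 bases before the gene start in RefSeq (GRCm38.p6), written 5′ to 3′ on the strand of the gene, with CpG dinucleotides in capitals. *Hoxa13* and *Hoxd13*, which pattern the digits and the end of the body axis, and *Hoxa5*, which patterns the neck and lung, had H3K4me1 without H3K4me3. *Hoxd10*, a limb gene, and *Hoxb4*, a gene of the hindbrain and of blood stem cells, had CpG-rich windows and no peak of any list. *Hoxa9*, a gene of blood progenitors, is shown as a promoter with few CpG and no peak.
Hoxa13 (chr6:52260881-52261130, minus strand): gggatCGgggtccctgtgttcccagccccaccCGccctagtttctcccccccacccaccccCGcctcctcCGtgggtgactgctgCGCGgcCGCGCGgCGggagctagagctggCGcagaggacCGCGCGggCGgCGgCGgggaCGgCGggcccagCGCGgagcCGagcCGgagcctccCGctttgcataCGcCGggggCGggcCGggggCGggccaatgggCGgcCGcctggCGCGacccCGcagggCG
Hoxd13 (chr2:74667975-74668224, plus strand): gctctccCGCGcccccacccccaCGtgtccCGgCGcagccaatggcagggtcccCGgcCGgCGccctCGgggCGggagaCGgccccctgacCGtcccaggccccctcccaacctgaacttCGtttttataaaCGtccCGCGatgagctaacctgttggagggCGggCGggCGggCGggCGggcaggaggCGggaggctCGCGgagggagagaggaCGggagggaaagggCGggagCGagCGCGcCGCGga
Hoxa5 (chr6:52204588-52204837, minus strand): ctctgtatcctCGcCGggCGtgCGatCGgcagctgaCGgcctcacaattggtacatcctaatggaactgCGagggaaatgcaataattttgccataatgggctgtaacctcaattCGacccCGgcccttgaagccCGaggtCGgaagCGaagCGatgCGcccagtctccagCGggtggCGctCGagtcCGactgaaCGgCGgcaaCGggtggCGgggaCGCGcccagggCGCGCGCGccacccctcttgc
Hoxd10 (chr2:74691641-74691890, plus strand): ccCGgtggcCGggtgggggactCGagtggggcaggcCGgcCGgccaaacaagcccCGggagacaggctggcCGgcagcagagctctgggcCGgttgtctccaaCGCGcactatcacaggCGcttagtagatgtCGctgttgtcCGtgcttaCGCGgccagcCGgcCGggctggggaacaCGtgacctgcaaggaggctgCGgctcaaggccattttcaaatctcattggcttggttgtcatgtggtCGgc
Hoxb4 (chr11:96318017-96318266, plus strand): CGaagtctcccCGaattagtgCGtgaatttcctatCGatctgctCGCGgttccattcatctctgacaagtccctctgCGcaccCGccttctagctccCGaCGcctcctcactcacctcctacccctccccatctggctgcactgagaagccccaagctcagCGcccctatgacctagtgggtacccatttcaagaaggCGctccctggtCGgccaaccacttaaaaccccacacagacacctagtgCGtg
Hoxa9 (chr6:52227371-52227620, minus strand): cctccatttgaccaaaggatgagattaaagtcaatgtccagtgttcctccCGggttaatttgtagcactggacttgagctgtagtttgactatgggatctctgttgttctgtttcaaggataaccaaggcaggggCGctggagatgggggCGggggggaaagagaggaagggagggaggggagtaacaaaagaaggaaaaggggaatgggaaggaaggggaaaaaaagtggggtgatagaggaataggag

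These stretches hold 35 CpG for *Hoxa13*, 31 for *Hoxd13*, 28 for *Hoxa5*, 20 for *Hoxd10*, 14 for *Hoxb4* and 3 for *Hoxa9*. The marked genes shown are those with the most CpG, so the examples do not stand for all Hox promoters. *Hoxa2* and *Hoxd8*, with H3K4me1, had 6 CpG each, and *Hoxa6*, with no peak of any list, had 24. The 24 RefSeq promoters of 22 of the Hox genes had a median of 12.5 CpG, against 6 for all 32851 promoters of the table. Of Hoxb only *Hoxb1*, *Hoxb4* and *Hoxb8* were among them, and of Hoxc only *Hoxc4*. The median therefore mostly describes Hoxa and Hoxd, the more CpG-rich clusters. *Hoxd10*, with 20 CpG and no peak, lies above the upper quartile of 16 for all promoters.

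The span of each cluster was next read as a whole, from the first to the last base of its listed genes. Hoxa covers 98.5 kb (chr6:52162417-52260880), Hoxb 174 kb (chr11:96194316-96368256), Hoxc 116 kb (chr15:102921103-103036852) and Hoxd 96.8 kb (chr2:74668310-74765142), 485 kb in all. H3K4me3, H3K27ac and Neurod1 each had 0 peaks in all 4 spans, while H3K4me1 had 37 and Otx2 had 8, so no span is empty in every list. Over the genome the densities were 0.516 H3K4me3 peaks, 2.31 H3K27ac peaks and 0.174 Neurod1 peaks per 100 kb.

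H3K4me1 was densest in Hoxd, with 18 peaks, or 18.6 per 100 kb, covering 14.2% of the span. Hoxa followed with 12 peaks, 12.2 per 100 kb and 10.6%. Both lay above the genome, which had 4.98 peaks per 100 kb and 6.49% covered. Hoxc, with 3 peaks, 2.59 per 100 kb and 2.62%, and Hoxb, with 4 peaks, 2.3 per 100 kb and 1.79%, lay below it. The 100 kb on each side of the clusters, 800 kb in all, held 32 H3K4me1 peaks, or 4 per 100 kb, and were covered to 3.06%.

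**Figure D3:**
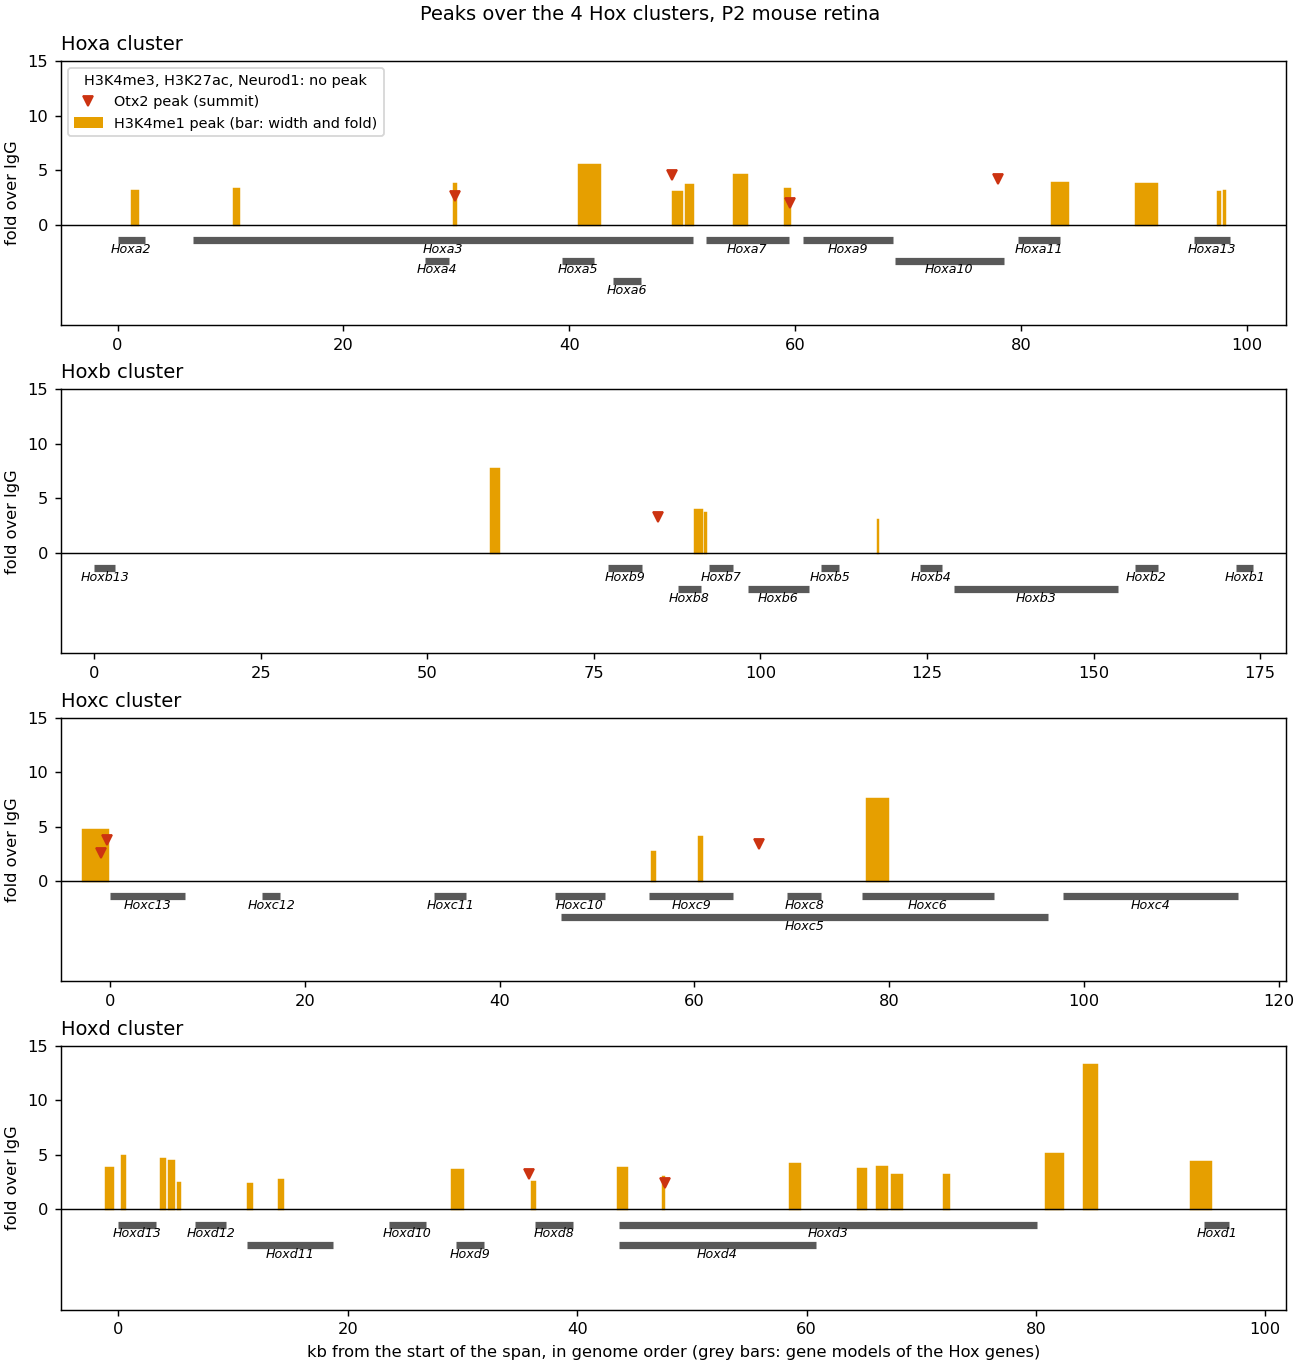
Peaks over the 4 Hox clusters, in kb from the start of each span in genome order (x axis), with H3K4me1 peaks as bars of their true width and fold enrichment over IgG (y axis), Otx2 summits as triangles at their fold enrichment, and the gene models of the Hox genes as grey bars below. Hoxa and Hoxd carry 12 and 18 H3K4me1 peaks along their length, Hoxb and Hoxc carry 4 and 3, and the highest bar, 13.4-fold, stands between *Hoxd3* and *Hoxd1*.

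The clusters also sat in long stretches without promoter marks. Around Hoxa, 626 kb held no H3K4me3 peak, around Hoxb 701 kb, around Hoxc 416 kb and around Hoxd 246 kb, where the median distance between neighbouring H3K4me3 peaks was 52.2 kb. Length alone was not rare, since 6.72%, 5.77%, 10.2% and 16.4% of the 14048 distances between H3K4me3 peaks were as long. The number of genes in them was less common, with the TSSs of 14, 13, 9 and 11 protein-coding genes, a number reached in 0.584%, 0.683%, 1.05% and 0.819% of those distances. These shares count each distance once, whereas a locus chosen beforehand is more likely to lie in a long distance. They therefore do not say how unusual the position of a cluster is. The genes in these stretches besides Hox genes include *Evx1* next to Hoxa and *Evx2* next to Hoxd, homeobox genes that had H3K4me1 (3.39-fold and 3.59-fold) and no H3K4me3 either.

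All but the lower end of the Hoxc stretch lay at promoters of genes with other roles. The bordering H3K4me3 peaks were at *Skap2* (5.41-fold) and *Hibadh* (15.9-fold) for Hoxa, at *Atp5g1* (13-fold) and *Snx11* (7.36-fold) for Hoxb, at *Smug1* (9.91-fold) on the upper side of Hoxc, and at *Lnpk* (20.6-fold) and *Mtx2* (20.6-fold) for Hoxd. These are genes of cell adhesion signalling, valine breakdown, mitochondrial ATP synthesis, membrane sorting, DNA repair, endoplasmic reticulum shape and mitochondrial import. The Hoxd stretch was the tightest, with the bordering peaks 88.7 kb and 60.4 kb from the ends of the span.

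No H3K27ac peak was called over longer distances, which ran past all of the H3K4me3 promoters just named. The stretch without H3K27ac was 1026 kb around Hoxa, 866 kb around Hoxb, 452 kb around Hoxc and 980 kb around Hoxd, against a median distance of 6.38 kb. As long were 0.221%, 0.321%, 1.13% and 0.243% of the 62909 distances between H3K27ac peaks. Here too each distance counts once, so the shares do not say how likely a chosen locus is to lie in one so long. Neurod1, the sparsest list, had no peak for 997 kb, 1029 kb, 523 kb and 1533 kb around the 4 clusters, where the median distance was 125 kb and 13.0%, 12.7%, 22.3% and 8.68% of distances were as long.

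**Figure D4:**
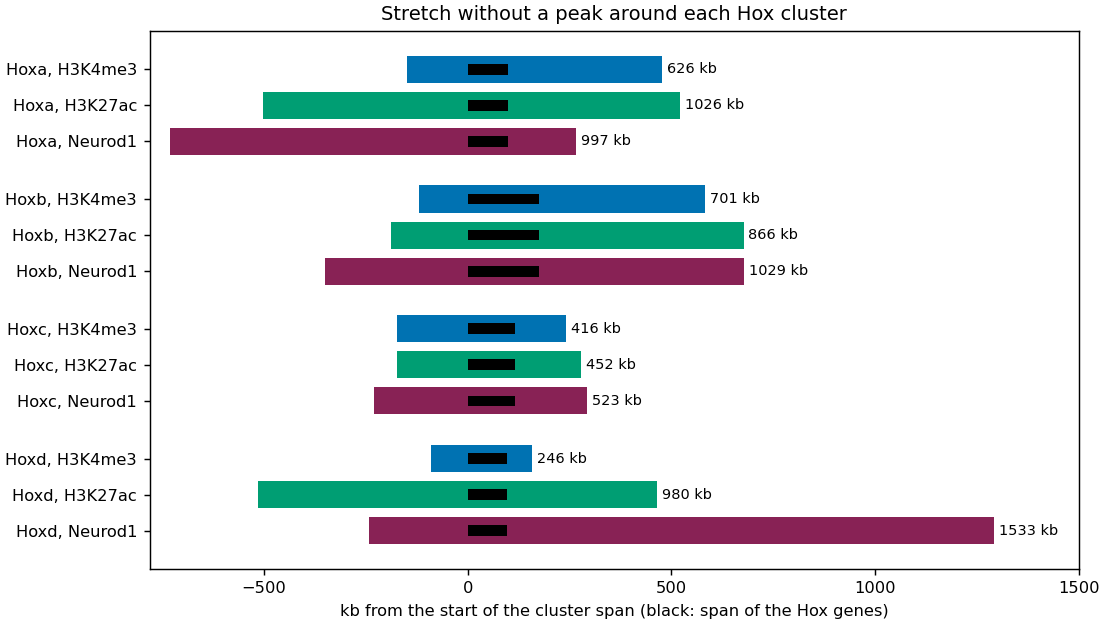
Stretch without a peak around each cluster (bars, in kb from the start of the cluster span, x axis), for H3K4me3, H3K27ac and Neurod1, with the span of the Hox genes in black and the length of the stretch written beside each bar. The H3K4me3 stretch around Hoxd is the shortest at 246 kb, and the H3K27ac stretch there runs to 980 kb.

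The H3K4me1 peaks of the clusters were weak for their list. The 37 peaks in the spans had a median fold enrichment of 3.83 (2.46 to 13.4), against 4.25 for all 135798 H3K4me1 peaks, a median −log10 q of 5.79 against 7.93, and a median width of 589 bp against 805 bp. Of the 37, 11 lay above the median fold of the list, and 13 had a −log10 q under 5, a limit that 33.0% of the list was under. In the spans 24 of them were within 1 kb of a Hox TSS and 13 were not, and with those just outside the spans 26 peaks accounted for the 18 marked genes. At the TSS, the strongest H3K4me1 peak of a Hox gene had a median of 3.85-fold, against 5.64-fold for all protein-coding genes with a peak. The classes differ, since only 2324 of those 13958 genes had H3K4me1 without H3K4me3 or H3K27ac, as all 18 Hox genes did. A median for the 2324 alone was not computed.

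*Hoxc6*, which patterns the thorax, had the strongest H3K4me1 peak at a Hox TSS, 7.65-fold over 2203 bp with a −log10 q of 25.1 (chr15:102998741-103000943). It was the one Hox gene above the protein-coding median, and the peak lies in introns of *Hoxc6* and *Hoxc5*. *Hoxa5* followed with 5.61-fold (chr6:52203209-52205091), over its own start. *Hoxd13* had 4.96-fold at a peak within its coding sequence (chr2:74668514-74668895). *Hoxc13*, a hair and nail gene, had 4.82-fold over 2696 bp just upstream (chr15:102918228-102920923), and *Hoxa7*, a trunk gene, had 4.61-fold (chr6:52216901-52218101).

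At the low end were *Hoxd8* with 2.57-fold and a −log10 q of 2.07, *Hoxc9* with 2.77-fold and 3.35, and *Hoxd11* with 2.82-fold and 3.77. These trunk and limb genes, with *Hoxa2* and *Hoxa13*, were the 5 marked genes without H3K4me1 at a −log10 q of at least 5. At that limit 13 of the 38 Hox genes had a peak, against 55.7% of protein-coding genes. The other marked genes, *Hoxa2*, *Hoxa3*, *Hoxa4*, *Hoxa11*, *Hoxa13*, *Hoxb7*, *Hoxd1*, *Hoxd3*, *Hoxd4* and *Hoxd9*, ranged from 3.16-fold (*Hoxa13*) to 4.41-fold (*Hoxd1*). With the window at 2 kb, 20 Hox genes had H3K4me1, against 66.6% of protein-coding genes. The 2 added ones were *Hoxd12* and *Hoxb8*. *Hoxd12* had peaks centred 1.5 kb (2.48-fold) and 2.06 kb (4.54-fold) upstream, and *Hoxb8* had one over its own 3′ part (3.98-fold).

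**Figure D5:**
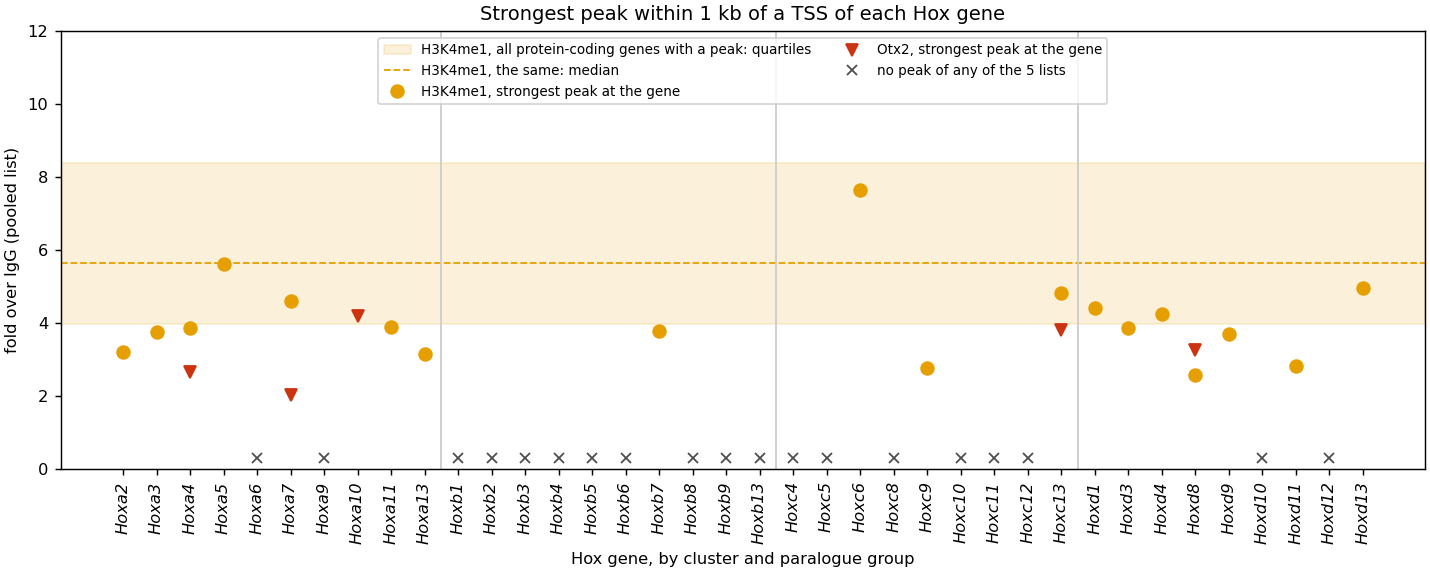
Strongest peak within 1 kb of a TSS of each of the 38 Hox genes (x axis, by cluster and paralogue group), as fold enrichment over IgG in the pooled list (y axis), for H3K4me1 (circles) and Otx2 (triangles), with crosses for the 19 genes without a peak. The shaded band and dashed line give the quartiles and median (5.64) of H3K4me1 over all protein-coding genes with a peak. Most of those genes also had H3K4me3 or H3K27ac, which no Hox gene had. *Hoxc6* at 7.65 is the one Hox gene above that median.

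Counts were close along the length of the clusters. H3K4me1 was found at 6 of 11 genes of paralogue groups 1 to 4, which act toward the head, at 5 of 11 of groups 5 to 8, and at 7 of 16 of groups 9 to 13, which act toward the tail. Otx2 was found at 1 of 11, 2 of 11 and 2 of 16. Paralogues with the same number often differed in H3K4me1, for example *Hoxa13*, *Hoxc13* and *Hoxd13* with a peak and *Hoxb13* without one, or *Hoxc6* with one and *Hoxa6* and *Hoxb6* without.

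In Hoxd and Hoxb the strongest H3K4me1 peak lay over non-coding genes, away from any Hox TSS. In Hoxd, a peak of 13.4-fold with a −log10 q of 49 (chr2:74752376-74753633) fell in an intron of the long non-coding RNA gene *Haglr* and an exon of *Gm14424*, 6.99 kb beyond a *Hoxd3* start. It ranked within the top 6.11% of all H3K4me1 peaks. In Hoxb, a peak of 7.81-fold (chr11:96253701-96255128) fell in an intron of the long non-coding gene *Gm53*, in the wide space between *Hoxb13* and *Hoxb9* and 17.0 kb from the latter. In Hoxa the strongest such peak had 3.87-fold (chr6:52252524-52254429), 7.22 kb upstream of *Hoxa11*, and in Hoxc it had 4.11-fold (chr15:102981510-102981914), in *Hoxc9*. The summits of the Hoxd and Hoxb peaks, and of the *Hoxc6* peak described above, had the following 101 bases, given on the plus strand of GRCm38 with CpG in capitals because these were the 3 highest H3K4me1 peaks in the clusters.
Haglr peak (chr2:74752657-74752757): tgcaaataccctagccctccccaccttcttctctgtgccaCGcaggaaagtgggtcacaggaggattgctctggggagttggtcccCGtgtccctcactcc
Gm53 peak (chr11:96254387-96254487): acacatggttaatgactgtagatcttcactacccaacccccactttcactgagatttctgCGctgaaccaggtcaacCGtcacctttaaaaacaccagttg
Hoxc6 peak (chr15:102999211-102999311): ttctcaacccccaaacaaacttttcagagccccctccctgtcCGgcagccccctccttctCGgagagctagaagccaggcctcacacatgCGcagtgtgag

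These strongest sites were not CpG-rich at their summits, with 2 CpG for the *Haglr* peak, 2 for the *Gm53* peak and 3 for the *Hoxc6* peak. None of the 3 peaks overlapped a peak of another list.

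Otx2, the paired-type homeodomain factor of photoreceptor and bipolar precursors, had 8 peaks in the spans. These came to 1.65 per 100 kb and covered 0.714%, beside 1.07 per 100 kb and 0.726% of the genome. Hoxa had 4 of them, Hoxd 2, Hoxb 1 and Hoxc 1. Their median fold was 3.3 (2.03 to 4.57), against 3.54 for the list, and their median −log10 q was 4.2 against 7.62. Of the 8, 6 had a −log10 q under 5, against 33.6% of the list.

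At the TSS, *Hoxa10*, a uterine and limb gene, had the strongest Otx2 peak, 4.2-fold with a −log10 q of 9.58 (chr6:52239909-52240531). It was the one Hox gene with Otx2 and no H3K4me1. *Hoxc13* had 2 Otx2 peaks, of 3.81-fold (−log10 q 9.42) and 2.55-fold (1.64), both within its upstream H3K4me1 peak. *Hoxd8* had 3.26-fold (3.93), *Hoxa4* 2.65-fold (2.5) and *Hoxa7* 2.03-fold (1.64). At a −log10 q of at least 5, 2 of the 5 genes had a peak, *Hoxa10* and *Hoxc13*. Over all protein-coding genes the share with Otx2 at that limit was 41.9%. All 5 genes had CpG-rich windows at the start of the principal transcript. The Otx2 peaks of *Hoxa10* and *Hoxa7* lay outside those windows, at other starts of the genes.

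Away from the TSSs, the strongest Otx2 peak of the clusters, 4.57-fold with a −log10 q of 12 (chr6:52211417-52212113), lay in an intron of *Hoxa3*, a gene of the pharyngeal arches, and overlapped an H3K4me1 peak. The others were 3.34-fold at 3.01 kb upstream of *Hoxb8*, 3.44-fold at 2.87 kb upstream of *Hoxc8*, and 2.46-fold in an intron of *Hoxd3* and *Hoxd4*. Of the 10 Otx2 peaks in the spans or at the TSSs, 6 overlapped H3K4me1 and 4 overlapped no other list. Over all 29115 Otx2 peaks, 78.9% overlapped H3K4me1 and 92.8% at least 1 of the 3 histone lists.

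The bases around 5 of these summits, 101 each on the plus strand of GRCm38 with CpG in capitals, are given because the letters TAATCC, the core that Otx2 is known to bind, were searched in them on both strands.
Hoxa3 intron (chr6:52211473-52211573): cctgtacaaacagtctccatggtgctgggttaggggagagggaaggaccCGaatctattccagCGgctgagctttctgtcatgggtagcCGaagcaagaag
Hoxc13 upstream (chr15:102920751-102920851): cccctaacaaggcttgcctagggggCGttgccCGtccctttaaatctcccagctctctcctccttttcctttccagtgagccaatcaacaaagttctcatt
Hoxd8 upstream (chr2:74704098-74704198): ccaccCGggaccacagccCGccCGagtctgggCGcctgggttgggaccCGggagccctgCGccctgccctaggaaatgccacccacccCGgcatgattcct
Hoxa4 upstream (chr6:52192235-52192335): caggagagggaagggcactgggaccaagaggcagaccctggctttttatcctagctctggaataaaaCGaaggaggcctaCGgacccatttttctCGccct
Hoxa7 upstream (chr6:52221921-52222021): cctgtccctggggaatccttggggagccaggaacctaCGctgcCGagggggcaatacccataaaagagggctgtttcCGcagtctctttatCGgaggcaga

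TAATCC was found within 50 bp of the summit in 0 of the 10 Otx2 peaks, against 713 (2.45%) of all 29115, and with 10 summits a difference from so low a share is not detectable. Over the whole width of a peak, 2 of the 10 held the letters, those in the *Hoxa3* intron and at *Hoxa10*, against 28.6% of all Otx2 peaks. A match is a description of the letters and not of binding. How often the letters occur in sequence away from peaks was not counted, so neither share shows that they mark Otx2 peaks.

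The partners and regulators of Hox proteins had H3K4me3, in contrast to the Hox genes. Over all protein-coding genes, H3K4me3 was found at 56% (93% of those with a CpG-rich window), H3K27ac at 22.6% and Otx2 at 51%. All 9 TALE homeobox genes, whose products bind DNA together with Hox proteins, had H3K4me3, from 6.62-fold (*Pbx4*) to 93.4-fold (*Meis1*), with 38.4-fold at *Meis2*. H3K27ac was found at 6 of the 9, and Otx2 at all 9. All 16 Polycomb and Trithorax genes, which keep Hox genes silent or active, had H3K4me3, from 6.29-fold (*Cbx7*) to 103-fold (*Kdm6a*, an H3K27 demethylase), with 35.5-fold at *Ezh2*, the H3K27 methyltransferase, and 46.9-fold at *Kmt2b*. H3K27ac was found at 4 of the 16 (25%), near the share of all protein-coding genes.

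Other developmental genes gave a scale for the Hox genes. The 10 eye field and progenitor genes all had H3K4me3, H3K27ac and H3K4me1, with H3K4me3 from 40.9-fold (*Neurod1*) to 159-fold (*Rax*). Of 20 developmental regulators listed as genes of other tissues, 3 had H3K4me3 (*Tbx3*, 66.5-fold, *Tbx5*, 13.2-fold, and *Gata6*, 3.24-fold) and 1 had H3K27ac (*Tbx5*), while 18 had H3K4me1. The list was not checked for genes that also act in the retina. It includes *Evx1* and *Evx2*, which lie in the stretches without H3K4me3 around Hoxa and Hoxd. Of 6 Dlx genes, homeobox genes that are also arranged in pairs, 3 had H3K4me3 (5.13-fold to 5.96-fold), 0 had H3K27ac and 6 had H3K4me1. Set beside these 20 regulators, the Hox genes had H3K4me3 at 0 of 38, H3K27ac at 0 of 38 and H3K4me1 at 18 of 38. The lists were chosen by name and no test of these differences was made.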

How the data were processed

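Peak lists of CUT&RUN on P2 mouse retina were analysed. Per the submitters' processing notes, the authors used Trim Galore 0.6.4, cutadapt 3.5, Bowtie2, SAMtools 1.12, UMI-tools, deepTools 3.5.1 and MACS2 on GRCm38. Per the study's methods, duplicates and blacklisted regions were removed and peaks were called for each target over IgG at a q-value of 0.05, with libraries pooled. The deposited fold enrichment over IgG and the deposited −log10 q-value are those of the authors' peak caller. Neither was rescaled. The 13LGS lists were not used here, and H3K27me3 and H3K9me3 were not analysed here.

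Peaks were joined to GENCODE M21 genes in Python 3.11.15 with pandas 2.3.3, numpy 2.4.6 and pysam 0.24.0, and plots were drawn with matplotlib 3.10.9. The overlap code was tested on simulated data against bedtools 2.31.1, with 0 differences. A gene had a TSS peak when a peak shared at least 1 bp with the 1 kb on either side of any annotated TSS. The CpG content was read from GRCm38 at the start of the principal transcript, and promoters from RefSeq.

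The Hox genes and the comparison lists were chosen with earlier results of these data known. The genes named are those with an H3K27ac, Otx2 or Neurod1 peak at a TSS, the 5 highest and 3 lowest for H3K4me3 and H3K4me1, those with no peak, and the strongest peak of each list away from a Hox TSS in each cluster. Since no Hox gene had H3K4me3, that mark named none. The distances between peaks, the limits that define a CpG-rich window, CpG-rich genes as background and other placements of the window were chosen after seeing the data.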

Additional observations from a re-analysis of the deposited data

How the results depend on the processing

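The lists pool all libraries of a target, so no replicate could be left out, and no paired analysis was possible because the results come from no test. Of 256 values recomputed under other settings, 238 were within 1.5 times the reported one. The 30 counts reported as 0 were those of H3K4me3, H3K27ac and Neurod1 at the TSSs, in the gene bodies and in each span. They stayed at 0 in the 129 alternatives run for them, which are among the 238. These alternatives could not have changed a 0, so they add nothing to it. Stricter settings only remove or join peaks. Wider ones reached at most 10 kb, and the nearest bordering peak of these lists lay 60.4 kb from a span. Requiring a −log10 q of at least 5 gave 2 Hox genes with Otx2 at a TSS, against 41.9% of protein-coding genes. In the gene body Otx2 was left at 2 Hox genes, against 45.9%. Hoxa kept 7 H3K4me1 and 2 Otx2 peaks, while Hoxb, Hoxc and Hoxd had 0 Otx2 peaks and 0 bp covered by Otx2. A fold of at least 2.5 gave 3 Hox genes with Otx2 in the body (51.0% of protein-coding genes) and 1 Otx2 peak (455 bp) in Hoxd. Widening each span by 10 kb on both sides raised the bases covered by Otx2 to 3119 in Hoxa, 931 (3 peaks) in Hoxc and 1321 in Hoxd, and those covered by H3K4me1 to 5725 in Hoxc. The Otx2 counts thus rest on peaks near the threshold or the edges of the spans. Between 13 and 20 Hox genes had H3K4me1 at a TSS over the 7 alternatives, and between 17 and 24 had no peak. Over all protein-coding genes the shares ran from 52.4% to 66.6% for H3K4me1 and from 29.9% to 33.9% for no peak. The stretches without H3K4me3 had the same length at both stricter limits, and those without H3K27ac grew to 879 kb around Hoxb, 541 kb around Hoxc and 1352 kb around Hoxd at a −log10 q of at least 5. With the CpG window at the 5′ end of the gene 19 Hox genes were CpG-rich, and 25 counting any TSS.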

Other observations

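The spans of the clusters also hold 38 annotated non-coding genes. H3K4me1 was found at the TSS of 13 of them (34.2%), against 21.2% of all 33475 non-coding genes, and Otx2 at 1 (2.63%, against 9.22%), the antisense gene *Hoxd3os1*, while H3K4me3, H3K27ac and Neurod1 were found at 0 (8.37%, 7.18% and 1.08% of all non-coding genes). These 13 genes rest on 10 distinct H3K4me1 peaks. *Haglr*, a long non-coding RNA gene on the strand opposite to *Hoxd1* and *Hoxd3*, had 3 H3K4me1 peaks at its TSSs, the strongest of 13.4-fold, which *Gm14424* and *Gm14426* shared. Among the microRNA genes of the clusters, *Mir10b* had H3K4me1 (4.26-fold, a peak it shares with *Hoxd4*), and *Mir10a*, *Mir196a-1*, *Mir196a-2*, *Mir196b* and *Mir615* had no peak of any list at a TSS. *Hotair*, a long non-coding RNA gene in Hoxc, had none, and neither had the 9 non-coding genes of Hoxb. *Hoxa11os*, which overlaps *Hoxa11* in the opposite direction, shared the 3.89-fold peak of that gene, as did *Gm28032*, *Gm27492*, *Gm27695* and *Gm27817*.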
